A study of Homo sapiens with 6 samples.

Results

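CD34, CD200, CD33, CD38, PROM1, CD99, CD48, CD47 and CD79A are 9 of the 62016 genes measured, chosen by name as surface markers of blood progenitors and of acute myeloid leukemia. They were chosen with earlier results of these data known. RNA was sequenced from Kasumi-1, a human myeloblast line from an acute myeloid leukemia that carries AML1-ETO, the fusion of the blood transcription factor RUNX1 with RUNX1T1. Viruses carried JMJD1C shRNA63, JMJD1C shRNA95 or a control shRNA into the cells for 4 days, and each of these 3 groups has 2 libraries. JMJD1C belongs to the KDM3 histone demethylases, and the series asked how its depletion changed expression. A further table of the authors sets 1 library with an AML1-ETO shRNA against 1 control library, and these came from another published series. All values come from a single cell line, and cultures behind the libraries of a group are not described, so the authors' p-values may measure technical spread only. In such bulk RNA, fewer cells carrying a transcript and less transcript per cell cannot be told apart.

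Surface antigens place a blood cell on its path of maturation. CD34 is a sialomucin of stem and progenitor cells, and PROM1 (CD133) is a membrane glycoprotein of immature cells. CD38, an enzyme that consumes NAD on the cell surface, appears as progenitors commit. CD33 is a sialic acid-binding inhibitory receptor of the myeloid lineage and the target of an antibody-drug conjugate used against this leukemia. CD200, CD47 and CD48 are ligands for receptors on other immune cells: CD200 for the inhibitory receptor CD200R1, CD47 for SIRPA, which restrains phagocytosis, and CD48 for CD244 on natural killer and T cells. CD99 is a membrane glycoprotein of leukocyte adhesion and migration. CD79A, a signalling chain of the B cell antigen receptor, is known as a lymphoid antigen found out of lineage in leukemias with AML1-ETO.

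Each JMJD1C table gives 1 FPKM value per group (fragments per kilobase of transcript, scaled to the mapped fragments), into which the authors had combined the libraries. Levels are therefore given without a standard deviation, and they are compared within a table only, since the authors scaled each table separately. A gene was called where the authors' q-value was under 0.05. The error of a log2 fold change is its size divided by the authors' test statistic. In the JMJD1C tables the normal deviate of the deposited p was at the median 1.42 times that statistic. The errors and intervals given are thus the wider reading for most genes. CD200 in the libraries labelled shRNA95 is an exception, with an error of 0.29 against 0.33 from its deposited p of 5e-05, the smallest listed. In the AML1-ETO table the errors given for CD34, CD48 and CD200 are the narrower reading. Depth is unknown; from untested genes with very low values it was estimated at 0.790 times the control for shRNA63 and 0.707 times for shRNA95. In the authors' deposited tables JMJD1C stood at 13.7 FPKM with shRNA63 against 30.4 in the control (called lower), and at 25.1 FPKM in the libraries labelled shRNA95 against 29.4 (not called), so JMJD1C mRNA gives no check of that second label. The single-library FPKM values of the AML1-ETO table are not used here, only the authors' log2 fold changes; RUNX1T1 was at -1.04 there, without a call in the authors' deposited table. Of 10 myeloblast markers 9 had a usable value in the JMJD1C tables, each reaching at least 1 FPKM, and MPO had no estimate. Erythroid and endothelial markers summed to at most 0.242 FPKM in any group.

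In the control cells the order of the levels was CD99, CD34, CD47, CD33, CD200, CD48, CD79A, CD38 and PROM1. In the shRNA63 table of the authors the control values were 203.2 FPKM for CD99, 150.7 for CD34, 46.9 for CD47 and 19.8 for CD33. CD200 stood at 9.69, CD48 at 4.64, CD79A at 2.33 and CD38 at 0.406 FPKM in these control cells. PROM1 was listed at 0 in every group of both JMJD1C tables and was not tested there. A value of 0 can be a failed estimate in such tables: TFRC, the transferrin receptor of dividing cells, was listed at 0 as well, marked by the authors as failed. PROM1 did not carry that mark, only that of a gene not tested. The abundant markers thus spanned CD99 at percentile 96.3 of tested genes and CD34 at 94.6, while CD38 lay at percentile 11.2. Without values per library, whether neighbours in this order differ beyond their spread cannot be said. With shRNA63 CD38 and CD79A changed places, at 1.22 and 0.948 FPKM. CD34, at 249.0 FPKM, stood above CD99, at 208.7, in the libraries labelled shRNA95.

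**Figure D1:**
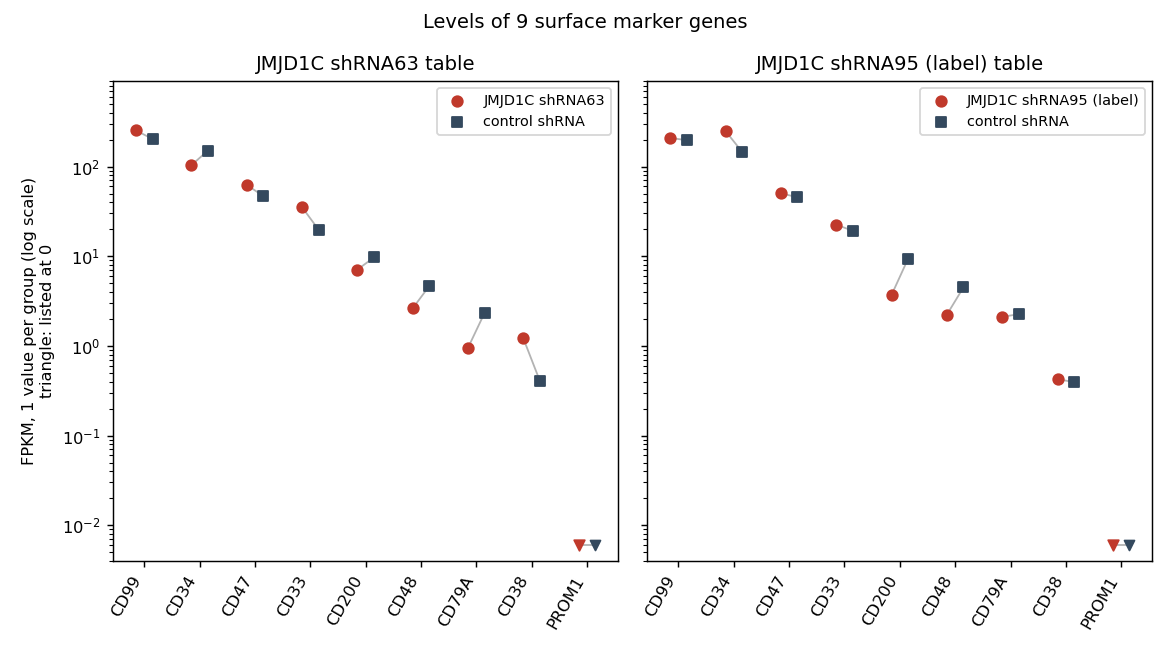
Levels of the 9 genes in FPKM on a log axis, 1 point per group in each JMJD1C table, with genes ordered by the control of the shRNA63 table; circles are shRNA groups, squares are controls and triangles mark values listed at 0. CD34 stood at 103.2 FPKM with shRNA63 and 249.0 in the libraries labelled shRNA95, against 150.7 and 146.1 in the control of each table.

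With shRNA63, CD33 rose and CD48 and CD79A fell. These were 3 calls among 8 tested members, where 5.12% of all 18271 tested genes were called (2.29% higher and 2.83% lower). An unadjusted p under 0.05 was deposited for 6 of the 8, and for 13.4% of all tested genes. The median log2 fold change of the 8 was -0.07, against 0.02 for all tested genes with a finite value. In the libraries labelled shRNA95, CD34 rose and CD200 and CD48 fell, again 3 calls among 8 tested, where 4.40% of 18006 genes were called (2.59% higher and 1.82% lower). Their median was 0.10, against 0.04 for all. Both comparisons share the control libraries, so their calls are not independent. The members were chosen with earlier results of these data known, so the shares of all genes are background and no test of the set.

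CD34 was the only tested member whose values lay above control with 1 hairpin and below it with the other. Its gene (ENSG00000174059) lies on chromosome 1 from 208057594 to 208084747 in hg19, the build of all gene positions given from the tables. It reached 249.0 FPKM in the libraries labelled shRNA95, against 146.1 in control cells, which the authors' deposited table gives as a log2 fold change of 0.77 with an error of 0.28 and q = 0.00216 (95% interval 0.22 to 1.32). With shRNA63 it stood at 103.2 FPKM, against 150.7 in control cells, and the authors' deposited table gives -0.55 on the log2 scale with an error of 0.27 (95% interval -1.08 to -0.01), not called at q = 0.0743. For the AML1-ETO shRNA the authors' deposited table gives CD34 a log2 fold change of -2.15 (error 0.53), the single call among the 8 members tested in that table.

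The difference between the hairpins was -1.32 for CD34 on the log2 scale (shRNA63 minus shRNA95, error 0.39, 95% interval -2.08 to -0.55). In a test of that difference over all 17267 genes with an error in both tables its unadjusted p was 0.00077 and its Benjamini-Hochberg adjusted p was 0.0769, both from a normal approximation, since group values allow no exact test. No member passed this test, in which 0.840% of all genes did. On simulated data the test missed differences of 2-fold and many larger ones, so not passing does not show that the hairpins were alike. Only CD34 and CD200 had an unadjusted p under 0.05, which makes 2 of 8, where 4.81% of all genes had one. The control is shared and cancels in the difference, so errors taken as independent are too wide. With the control taken to give an equal part of each error, and that part removed, CD34 passed, with an adjusted p of 0.000197, and without the lower limit set on errors it passed at 0.0449. CD200 differed by 0.89 (error 0.41, 95% interval 0.10 to 1.69) and did not pass. For CD48 the difference was 0.19, with an interval of -0.69 to 1.06, and of -0.43 to 0.80 with the shared control part removed.

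**Figure D2:**
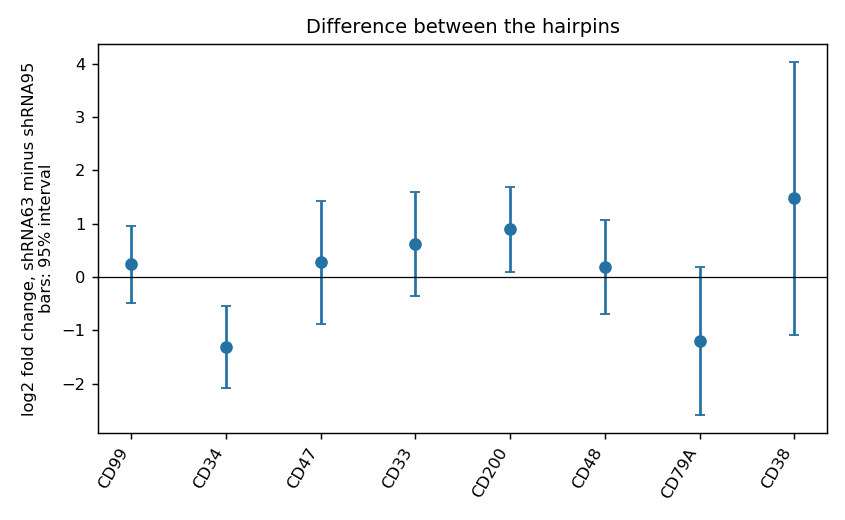
Difference in log2 fold change, shRNA63 minus shRNA95, for the 8 tested members; bars are 95% intervals with errors taken as independent. CD34 at -1.32 and CD200 at 0.89 are the points whose intervals leave out 0.

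PROM1 and CD38, the other markers of immaturity and commitment, gave little signal. PROM1 (ENSG00000007062, chromosome 4 from 15961866 to 16086001, a span shared in the tables with FGFBP2 and a U6 gene) was not tested in the AML1-ETO table either. CD38 (ENSG00000004468, chromosome 4 from 15779898 to 15851069) was at 1.22 FPKM with shRNA63 against 0.406 in control cells. Its log2 fold change of 1.58 in the authors' deposited table had an error of 0.83 and was not called (q = 0.0688). At these levels a pseudocount of 1 FPKM brought the CD38 ratio to 0.66. In the libraries labelled shRNA95 CD38 stood at 0.425 FPKM against 0.394 in control cells. With the AML1-ETO shRNA the authors' deposited table has CD38 at 0.20 (error 0.81).

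CD33 (ENSG00000105383, chromosome 19 from 51728320 to 51747115) was the only member called higher with shRNA63. It reached 35.4 FPKM, against 19.8 in control cells, which the authors' deposited table gives as a log2 fold change of 0.83 with an error of 0.33 and q = 0.0135 (95% interval 0.19 to 1.48). Its level was 22.5 FPKM in the libraries labelled shRNA95, against 19.2 in control cells, with an interval of -0.50 to 0.95 around 0.23 in the authors' deposited table. With the AML1-ETO shRNA the authors' deposited table has CD33 at 0.59 (error 0.70). The 3 comparisons thus gave CD33 ratios above control, of which 1 was called. Between hairpins the difference of 0.61 had an interval of -0.37 to 1.58.

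Of the ligands, CD48 and CD200 were lower than control in all 3 tables, and CD48 alone was called in both JMJD1C tables. The CD48 gene (ENSG00000117091) is placed on chromosome 1 from 160639938 to 160681641, a span it shares with AL121985.1, RP11-404F10.2 and SETP9, none above 0.0396 FPKM. CD48 stood at 2.61 FPKM with shRNA63 against 4.64 in control cells, a log2 fold change of -0.83 in the authors' deposited table (error 0.31, q = 0.00849). The libraries labelled shRNA95 had it at 2.23 FPKM against 4.50 in control cells, a log2 fold change of -1.01 in the authors' deposited table (error 0.32, q = 0.00216). With the AML1-ETO shRNA it had a log2 fold change of -2.63 (error 0.74), not called in the authors' deposited table. CD48 and CD200 were the members called lower in the libraries labelled shRNA95 whose calls held under every alternative tried.

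CD200 (ENSG00000091972, chromosome 3 from 112051915 to 112081659) had its deepest loss in those same libraries among the JMJD1C groups. It fell to 3.69 FPKM there, against 9.39 in control cells, which the authors' deposited table gives as a log2 fold change of -1.35 with an error of 0.29 and q = 0.00216 (95% interval -1.91 to -0.78). With shRNA63 it was at 7.07 FPKM against 9.69 in control cells, and the log2 fold change of -0.45 in the authors' deposited table (error 0.29, q = 0.236) was not called. With the AML1-ETO shRNA the log2 fold change of CD200 was -6.75 in the authors' deposited table and not called. Its error of 2.04 was the widest of the 8 members there, and the error from its deposited p was wider still, at 3.42.

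CD47 and CD99, both abundant, were called in no table. CD47 (ENSG00000196776, chromosome 3 from 107762145 to 107809872) stood at 62.8 FPKM with shRNA63 against 46.9 in control cells, and at 50.3 FPKM in the libraries labelled shRNA95 against 45.5. Its intervals in log2 units, from the authors' deposited tables, were -0.39 to 1.23 and -0.68 to 0.97. With errors taken from the deposited p they were -0.13 to 0.97 and -0.42 to 0.71. With the AML1-ETO shRNA CD47 was at 0.96 on the log2 scale (error 0.75) by the authors' deposited table. CD99 (ENSG00000002586, chromosome X from 2609220 to 2659350, in a region with an identical copy on Y, which makes its level less certain) was at 253.3 FPKM with shRNA63 against 203.2, and at 208.7 FPKM in the libraries labelled shRNA95 against 196.9. The intervals for CD99 were -0.14 to 0.78 and -0.39 to 0.56 in the authors' deposited tables, which leave out a change of 2-fold in either direction. For CD99 the authors' deposited table lists -0.10 (error 0.47) with the AML1-ETO shRNA.

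CD79A (ENSG00000105369, chromosome 19 from 42381190 to 42385439) fell with shRNA63, to 0.948 FPKM against 2.33 in control cells. The authors' deposited table gives a log2 fold change of -1.30 with an error of 0.51 and q = 0.0185 (95% interval -2.30 to -0.30). The libraries labelled shRNA95 had 2.11 FPKM against 2.26, and the log2 fold change with the AML1-ETO shRNA was 0.12 in the authors' deposited table, neither called. Between hairpins the difference was -1.20 (error 0.71, 95% interval -2.59 to 0.20), and the interval was -2.19 to -0.21 with the shared control part removed; neither setting passed after adjustment. Of the 6 B cell markers 4 were tested with shRNA63, CD79A was the 1 called, and their summed level was 9.35 FPKM against 14.8 in control cells. In the libraries labelled shRNA95 that sum was 11.6 against 14.3 FPKM. CD79B, the partner chain of CD79A, was at 7.16 FPKM with shRNA63 against 10.5 in control cells and was not called. MS4A1 (CD20) was listed at 0 in each group, and EBF1, a factor that defines B lineage cells, did not exceed 0.0057 FPKM. The part of other B lineage transcripts in the change of CD79A was not tested.

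**Figure D3:**
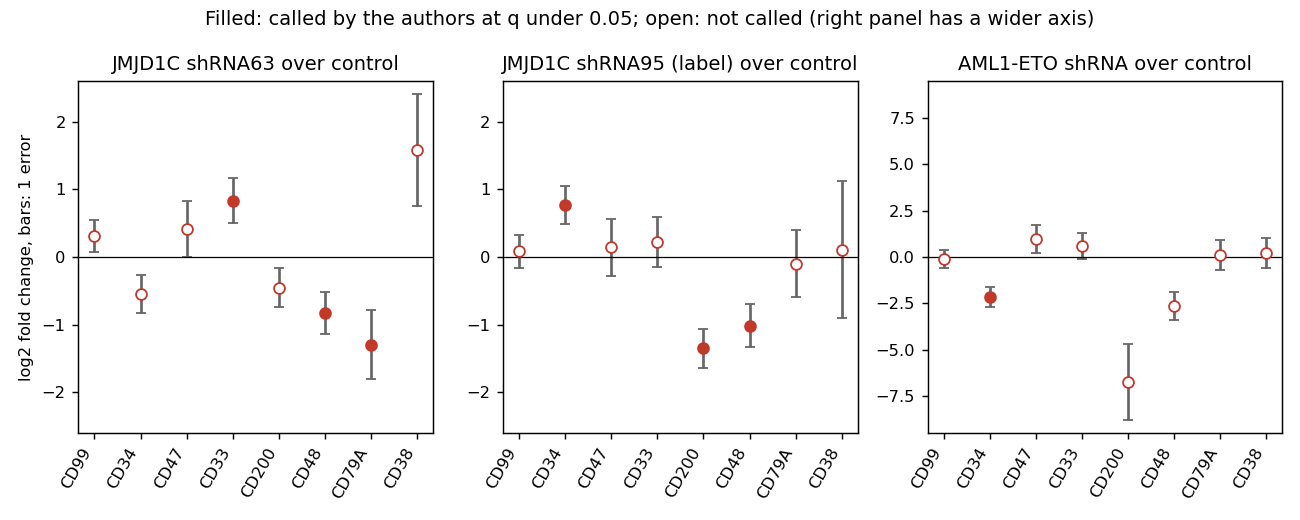
log2 fold change over control for the 8 tested members in each table; bars are 1 error, filled points were called by the authors at q under 0.05, and the AML1-ETO panel has a wider axis. CD48 and CD200 are below 0 in each panel, and CD34 is at 0.77 in the libraries labelled shRNA95 and at -2.15 with the AML1-ETO shRNA.

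Several of these calls depended on how the authors' p-values are read. When p-values were taken from the deposited statistic by a normal distribution and adjusted over all tested genes, CD33, CD48 and CD79A were no longer called with shRNA63. The CD34 call in the libraries labelled shRNA95 was lost as well, while CD200 and CD48 stayed called there.

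The AML1-ETO table has no replicates, so its fold changes compare 2 libraries, and a change of at least 2-fold serves as its description. CD34, CD48 and CD200 were lower by at least 2-fold, 3 of the 8 tested members, and none was higher by that much. The authors' deposited table holds 21727 tested genes with a finite ratio, of which 17.9% differed by at least 2-fold, 7.86% lower and 10.0% higher. The authors' own threshold called 0.411% of 22406 genes there, among them CD34. The median log2 fold change of the 8 members was 0.01 and that of all genes was -0.01. Here too the shares are background only, since the members were chosen with earlier results known.

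The upstream sequences of CD48 and CD33 are shown because each is a member called with shRNA63 and at most 30 of their bases lie in exons of the gene in GENCODE 29. They are the 250 bases before the start of the gene, 5′ to 3′, from the RefSeq promoter table of GRCh38.p14, for CD48 at chr1:160711823-160712072 on the minus strand and for CD33 at chr19:51224830-51225079 on the plus strand. Capitals would mark the RUNX motifs TGTGGT and TGCGGT or the ETS motif GGAAGT on either strand, and neither window holds any of the 3.
CD48: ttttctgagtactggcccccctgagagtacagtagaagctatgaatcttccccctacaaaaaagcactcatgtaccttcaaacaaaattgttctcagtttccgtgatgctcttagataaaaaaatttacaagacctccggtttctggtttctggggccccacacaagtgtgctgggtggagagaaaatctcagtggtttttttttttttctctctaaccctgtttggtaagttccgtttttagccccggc
CD33: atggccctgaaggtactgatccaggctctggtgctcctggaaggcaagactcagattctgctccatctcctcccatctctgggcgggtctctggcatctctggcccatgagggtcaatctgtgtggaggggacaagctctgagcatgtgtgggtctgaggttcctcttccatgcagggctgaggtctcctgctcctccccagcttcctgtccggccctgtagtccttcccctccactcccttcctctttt
All 9 members matched the table, with 12 promoter windows. In GENCODE 29, exons of the gene cover 159 of the 250 bases in the CD79A window. They cover all 250 for CD34, CD200 and some PROM1 windows, so such windows are not purely upstream sequence. The TGTGGT motif was in 11.0% of all 35115 promoter windows of this length, TGCGGT in 5.84% and GGAAGT in 19.5%. Among the 12 windows of the members, CD79A alone had matches: TGTGGT on the opposite strand starting 185 bases before the RefSeq start, and GGAAGT starting 54 bases before it, without overlap. Both are shown with 10 bases on either side, at chr19:41877084-41877109 and chr19:41877215-41877240.
CD79A RUNX match: aattgtggccACCACAggtgcaggga
CD79A ETS match: gggctgggcaGGAAGTagggtggggt
A match is a string of letters and shows no binding.

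Of the receptors and signalling partners of these antigens, SIRPA, SYK, THBS1 and PTPN6 were called with a hairpin. Of 15 partner genes 14 were in the tables on assembled chromosomes and 11 were tested with each hairpin. With shRNA63, 2 were called higher and 0 lower, where 2.29% and 2.83% of all tested genes were. In the libraries labelled shRNA95, 3 were called higher and 0 lower, where 2.59% and 1.82% of all were. This list and those below were chosen with earlier results known, so their counts are no test of a list. SIRPA, the receptor of CD47, stood at 2.07 FPKM with shRNA63 against 0.751 in control cells, and at 1.61 FPKM in the libraries labelled shRNA95 against 0.728, called in both of the authors' deposited tables. SYK, the kinase recruited by CD79A, was called with shRNA63 at 1.29 against 0.677 FPKM. THBS1, a secreted ligand of CD47, was called in the libraries labelled shRNA95 at 2.27 against 0.231 FPKM. PTPN6, a phosphatase bound by inhibitory receptors such as CD33, was called in the same libraries, at 120.7 FPKM against 41.2 in control cells, a log2 fold change of 1.55 in the authors' deposited table (error 0.35). PTPN11, PILRB and PTPN6 had the highest levels among partners not called with shRNA63, at 93.4, 53.3 and 52.1 FPKM against 92.0, 42.6 and 42.5. CD200R1, the receptor of CD200, did not exceed 0.0245 FPKM in the JMJD1C tables. CD244, the receptor of CD48, stood at 5.29 FPKM with shRNA63 against 5.06 in control cells and was not called. Of 7 genes around NAD and ADP-ribose 6 were tested with each hairpin. NT5E (CD73), which makes adenosine, was called higher in both, at 0.967 against 0.287 FPKM with shRNA63 and at 3.66 against 0.278 FPKM in the libraries labelled shRNA95. SIRT1, an NAD-dependent deacetylase, was called lower with shRNA63 at 15.8 against 25.9 FPKM, and BST1, the relative of CD38, was called higher in the libraries labelled shRNA95 at 22.5 against 9.57 FPKM, which makes 1 higher and 1 lower with shRNA63 and 2 higher in the other group.

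Other surface antigens of leukemia stem and blast cells moved in both directions. Of 28 such genes 21 were tested with each hairpin. With shRNA63, 4 were called higher and 4 lower (5.12% of all tested genes were called), and the list median was -0.07. In the libraries labelled shRNA95, 2 were called higher and 2 lower (4.40% of all were called), with a median of 0.36. PTPRC (CD45), the common leukocyte phosphatase, was called higher in both, at 23.0 FPKM with shRNA63 against 7.50 in control cells, and at 44.7 against 7.26 in the libraries labelled shRNA95. CD93, a C-type lectin of progenitors and endothelium, was called lower in both, at 19.7 against 34.6 FPKM with shRNA63 and 13.6 against 33.5 FPKM in the other libraries. KIT, the stem cell factor receptor, was called lower with shRNA63, at 133.8 FPKM against 245.2 in control cells, as were CD69, an early activation antigen, at 18.9 against 35.5 FPKM, and IL1RAP, a coreceptor of interleukin-1, at 15.1 against 33.3 FPKM. These 3 were not called in the libraries labelled shRNA95, where KIT stood at 166.0 against 237.6 FPKM, CD69 at 44.7 against 34.4 FPKM and IL1RAP at 49.3 against 32.2 FPKM. CD82, a tetraspanin, was called higher with shRNA63 at 6.70 against 1.93 FPKM, and FCGR2A, an Fc receptor, at 17.8 against 9.54 FPKM. GPR56, an adhesion receptor, was also called higher there, although its error of 3.85 exceeds its log2 fold change of 1.08 in the authors' deposited table. ANPEP (CD13), a myeloid peptidase, was called higher in the libraries labelled shRNA95, at 127.9 against 57.9 FPKM, and CD97, an adhesion receptor, was called lower there, at 19.2 against 37.4 FPKM. In the AML1-ETO comparison CD82 alone was called, with a log2 fold change of 4.31 in the authors' deposited table.

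**Figure D4:**
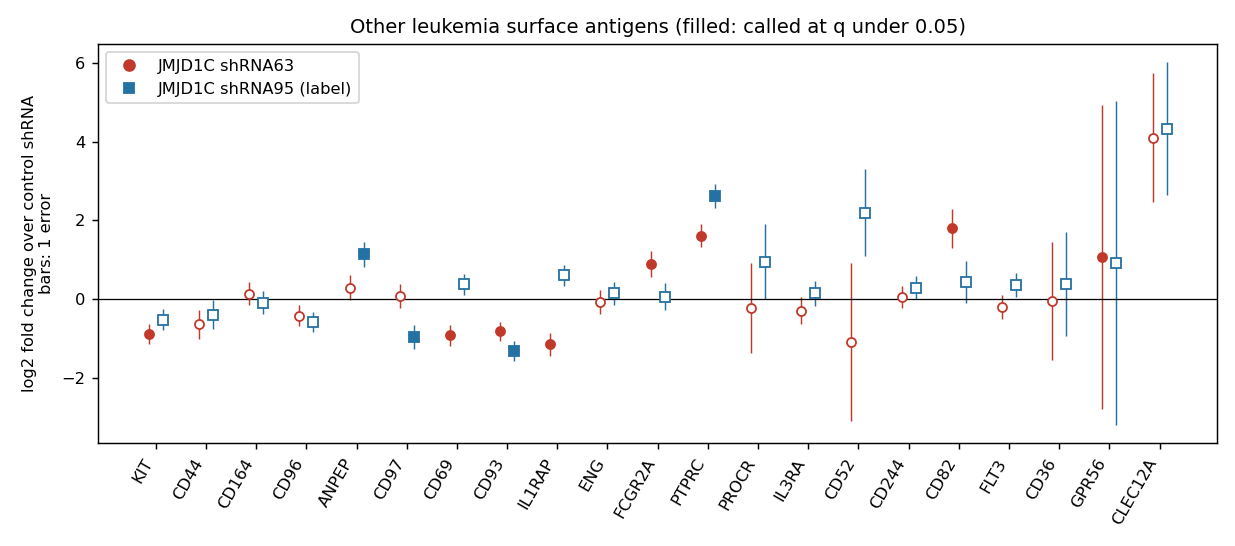
log2 fold change over control for the 21 tested genes of the wider list of leukemia surface antigens, ordered by control level; bars are 1 error and filled points were called. PTPRC is called above 0 and CD93 below 0 with both hairpins, while KIT, CD69 and IL1RAP are called below 0 with shRNA63.

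Among the relatives of CD33 and CD48 and the B lymphoid genes listed beside CD79A, CD22 was the gene called with the hairpins. Of 11 Siglec genes, the family of CD33, 6 were tested with shRNA63 and 7 in the libraries labelled shRNA95. CD22, a Siglec of B cells, was the 1 called in each, lower, at 0.563 against 2.68 FPKM and 0.858 against 2.59 FPKM. In the AML1-ETO table all 8 Siglec genes tested were lower by at least 2-fold in the authors' deposited table, with a median log2 fold change of -1.97 and none called. Of all tested genes with a finite ratio there, 7.86% were lower by that much. CD33 itself was above control there, at 0.59. Of 7 genes of the SLAM family and CD58, relatives of CD48, CD58 was the 1 gene tested with either hairpin and was not called. CD84 was called higher with the AML1-ETO shRNA, where the authors' deposited table lists 4.53 on the log2 scale (error 1.08). Of the 13 B lymphoid genes measured, 7 were tested with each hairpin, and CD22 was again the 1 called.

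Among antigens of mature myeloid cells, 8 of 14 were tested with shRNA63 and 10 in the libraries labelled shRNA95. CD4, found on monocytes as well as T cells, was called higher with both hairpins, at 65.8 against 40.4 FPKM with shRNA63 and 69.0 against 39.2 FPKM in the libraries labelled shRNA95. CSF1R, the receptor of macrophage colony-stimulating factor, was called higher with shRNA63, at 0.593 against 0.118 FPKM. FCGR1A (CD64), an Fc receptor of monocytes, was called higher in the libraries labelled shRNA95 at 8.25 against 2.30 FPKM, and FUT4, the enzyme that makes the CD15 antigen, at 26.2 against 15.3 FPKM. None of these antigens was called lower with either hairpin. Over all tested genes, 2.29% were called higher and 2.83% lower with shRNA63, and 2.59% and 1.82% in the libraries labelled shRNA95. Of the 9 myeloblast markers with a value, which include CD33 and CD34, 5 were called higher and 1 lower with shRNA63, and 5 higher and 0 lower in the libraries labelled shRNA95. Besides CD33, the granule protease genes ELANE, PRTN3 and CTSG and the related granule gene AZU1 were the higher ones with shRNA63, and KIT the lower one. AZU1, CTSG, ANPEP, CD34 and CEBPE, a factor of granulocyte maturation at 78.2 against 35.7 FPKM, were the higher ones in the libraries labelled shRNA95. The 4 granule genes summed to 14972 FPKM with shRNA63 against 5842 in control cells, and to 8188 against 5666 in the libraries labelled shRNA95. The other 5 markers summed to 398.0 FPKM with shRNA63 against 512.3, and to 643.5 against 496.5 in the libraries labelled shRNA95. Their part in the changes of CD33 and CD34 was not tested. T cell markers summed to 2.68 FPKM with shRNA63 against 9.13 in control cells. CD3D led them, at 2.45 against 8.52 FPKM, and was not called (error 1.10). CD5 was listed at 0, and CD3E was called lower, at 0.122 against 0.470 FPKM. In the libraries labelled shRNA95 the T cell markers summed to 2.01 FPKM against 8.85, with none called. The megakaryocyte gene ITGA2B was called lower with shRNA63 too, at 0.914 against 2.29 FPKM.

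The genes with the most similar pattern were found by the Euclidean distance over the log2 fold changes of the 3 tables, among 9973 genes tested in all of them with at least 5 FPKM in the higher group of both JMJD1C tables. CD34 was closest to IL18RAP (distance 0.32), C10orf107 (0.43) and TMEM154 (0.50). IL18RAP had log2 fold changes of -0.35 with shRNA63, 0.87 in the libraries labelled shRNA95 and -2.39 with the AML1-ETO shRNA in the authors' deposited tables. CD48 was closest to a gene named only by its clone (0.20), to TSPAN18 (0.21) and SHANK1 (0.23). CD33 had SNORA2, FHIT and NUDT7 within 0.18, and CD79A had FAM96B, GNPDA1 and AL162458.2 within 0.25. CD200 had no close neighbour, since its nearest, FLT1, lay at a distance of 1.47. Most of that came from the AML1-ETO shRNA, where FLT1 was at -5.35 and CD200 at -6.75 with an error of 2.04. The lack of a neighbour thus rests largely on an uncertain ratio. The distance rests on 3 values per gene, of which the first pair shares control libraries. For CD33, CD48 and CD79A the distances are smaller than each error of the member's own log2 fold changes, so which genes rank nearest is uncertain. CD48 and CD79A themselves lay below the limit of 5 FPKM set for the neighbours.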

How the data were processed

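The submitters' processing notes name TopHat2 2.0.8b, Cuffdiff 2.1.1 and hg19. Per the file headers, each of the 3 tables is a Cuffdiff comparison with FPKM, a log2 fold change, a test statistic (a score per gene), a p-value and a q-value, all as deposited by the authors. The FPKM columns of the AML1-ETO table hold single libraries from a different series and do not enter here. The smallest p-value in each is 5e-05. The members and all lists were chosen with earlier results of these data known. Named were the 9 members, every list gene called in a JMJD1C table, up to 3 abundant uncalled partners, and the 3 genes nearest each called member; CD244, CD200R1, CD84, CD58, CD79B, MS4A1, EBF1, CD3D, CD5 and TFRC were added after their values were seen. No test across libraries was possible from group values. Differences between hairpins were tested against a normal distribution, errors below the 10th percentile raised to it, in Python 3.11.15 with scipy 1.17.1. The test was checked on simulated data, where it missed differences of 2-fold and many larger ones. Alternatives covered the q threshold, normal p-values, a minimum of 1 FPKM, a fold limit, pseudocounts, centring and the errors. The file positions were converted to count from 1. For strandedness the sources used here say nothing, so antisense reads cannot be told apart.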

Additional observations from a re-analysis of the deposited data

How the results depend on the processing

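At q under 0.01 the called genes were 559 with shRNA63 (936 as reported), 508 in the libraries labelled shRNA95 (793) and, for AML1-ETO, 0 (92). With a change of at least 2-fold also required they were 501 and 450 in the JMJD1C tables. Normal p-values of the statistic gave 396 genes in the AML1-ETO table. Of the members, 1 stayed called with shRNA63 at q under 0.01 (CD48), 1 with the fold limit (CD79A) and 0 with normal p-values, where 6 of 8 had an unadjusted deposited p under 0.05, as had 13.4% of all genes. For AML1-ETO, 0 members were called at q under 0.01 and 2 with normal p-values (CD34 and CD48). Between hairpins 1 member, CD34, passed with errors scaled to the deposited p, with the shared control part removed, and without the lower limit of errors, and 0 passed otherwise. No called member changed sign under any pseudocount or centring. The FPKM filter and the pseudocounts were not run for AML1-ETO, whose levels are not used, and centring there took all tested genes. The tables hold no value per library, so leaving out a replicate was not possible. No paired analysis was possible because the authors had combined the replicates of each group into a single value. The median error was 1.14 for genes of 0.3 to 1 FPKM in the shRNA63 table, against 0.29 in the most abundant class.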
